A study of Danio rerio with 12 samples.

Results

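The phototransduction cascade genes of rods and cones were examined in RNA-Seq libraries of 5 dpf zebrafish larval heads. The set was given as 40 gene names covering transducin, phosphodiesterase, the cGMP-gated channel, opsin shutoff, cGMP synthesis, transducin shutoff and a few disc, adhesion and chaperone genes, and 39 of them had a row among the 32266 genes of the count table. 11 of the 39 were classed as rod genes, 17 as cone genes and 11 as belonging to no single class, by their known expression. The remaining name, *gucy2d*, was not found, although its Ensembl gene was listed as *gc3*. 6 libraries were compared, 3 of *rb1/rb1* mutant heads and 3 of +/+ wild-type heads, each a pool of 5 heads. The mutants were homozygous for *rb1Δ7*, a frameshift allele in exon 2 that is lethal at larval stages. The paper describes the wild types as their +/+ siblings from a heterozygous incross. The paper names WIK as its wild-type strain, but does not state the background of this incross. All larvae were 5 dpf, none carried a transgene or received a treatment, and genotype was read from the trunk of each larva. A head library holds brain, lens, pineal and skin RNA beside that of the retina.

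In darkness, rods and cones hold a cGMP-gated channel open in their outer segment. A photon activates an opsin, which switches on transducin; transducin releases phosphodiesterase from its inhibitory subunit, cGMP is broken down, and the channel closes. Opsin kinases, arrestins, recoverins and the Rgs9 complex end the response, and guanylate cyclase with its calcium-binding activators restores cGMP. Rods and cones use separate genes for most of these steps. In this set, transducin, phosphodiesterase, the channel and opsin shutoff held genes of both classes. Only these steps could be read in both cell types from the same library. Zebrafish cones work by the age examined, whereas rods are still maturing.

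The libraries held between 41065256 and 47700950 counts on genes. *rb1* itself had 570, 491 and 422 counts in the mutant pools, against 1221, 830 and 826 counts in the wild-type pools, a log2 fold change of -1.09 ± 0.16 (SE, edgeR adjusted p = 0.0121). All mutant pools were below all wild-type pools. A frameshift allele can still be transcribed, so a level above 0 does not go against the label. Retinal photoreceptor RNA was plain in every library. *rho*, the rod opsin, ranged from 2501 to 2578 CPM (counts scaled to library size by TMM) in mutants and from 3732 to 4732 CPM in wild types. *opn1sw1*, the ultraviolet cone opsin, ranged from 4717 to 7356 CPM in mutants and from 5869.7 to 6201 CPM in wild types. Pools of 1 genotype held different larvae, and p-values measure the spread between these pools.

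Expression of the cascade was lower in the *rb1/rb1* mutant heads, and the decrease was most regular in the rod genes. Of the 39 genes, all of which passed the filter on low counts, 36 had a negative log2 fold change and 3 a positive one. 11 fell at an edgeR adjusted p of at most 0.05 (*gnat1*, *gngt1*, *pde6a*, *pde6b*, *pde6g*, *pde6h*, *cnga1*, *cngb3.1*, *grk1a*, *sagb* and *guca1b*), against a background of 2.17% of all 22753 genes tested, and 0 rose (background 3.82%). They comprised 8 of the 11 rod genes, 2 of the 17 cone genes and 1 of the 11 genes of no single class. The median log2 fold change was -0.61 over the rod genes, -0.56 over the cone genes and -0.34 over the genes of no single class, beside -0.01 over all genes tested. In 18 of the 39 genes, all mutant pools were below all wild-type pools (background 13.3%), and in 0 all mutant pools were above (background 15.9%).

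The edgeR adjusted p of these decreases did not reach the stricter threshold of the study, although 8 of the 11 fold changes were larger than 1.5-fold. The study applied that threshold to DESeq2 results, so the edgeR count is not the count by its own test. With the study's criteria (adjusted p no higher than 0.01, 1.5-fold or more), edgeR called 0 of the 39 genes, while the background was 0.286% of genes lower. At an unadjusted p under 0.05, 26 of the 39 were lower (background 10.5%), and DESeq2 called 10 lower at the threshold of the study (background 1.98%) and 17 at an adjusted p of 0.05 (background 5.16%). Without mutant pool 3, edgeR called 4 at the threshold of the study (background 0.37%). Leaving out 1 library changed the number that fell at an adjusted p of at most 0.05: it was 0 without mutant pool 1 (background 0.292%), 6 without mutant pool 2 (background 1.69%), 14 without mutant pool 3 (background 3.34%), 6 without wild-type pool 1 (background 1.17%), 1 without wild-type pool 2 (background 0.257%) and 6 without wild-type pool 3 (background 1.07%). The median log2 fold change of the 39 genes stayed between -0.60 and -0.46 in these 6 fits. In bulk heads, fewer photoreceptors and less RNA per photoreceptor cannot be told apart.

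**Figure D1:**
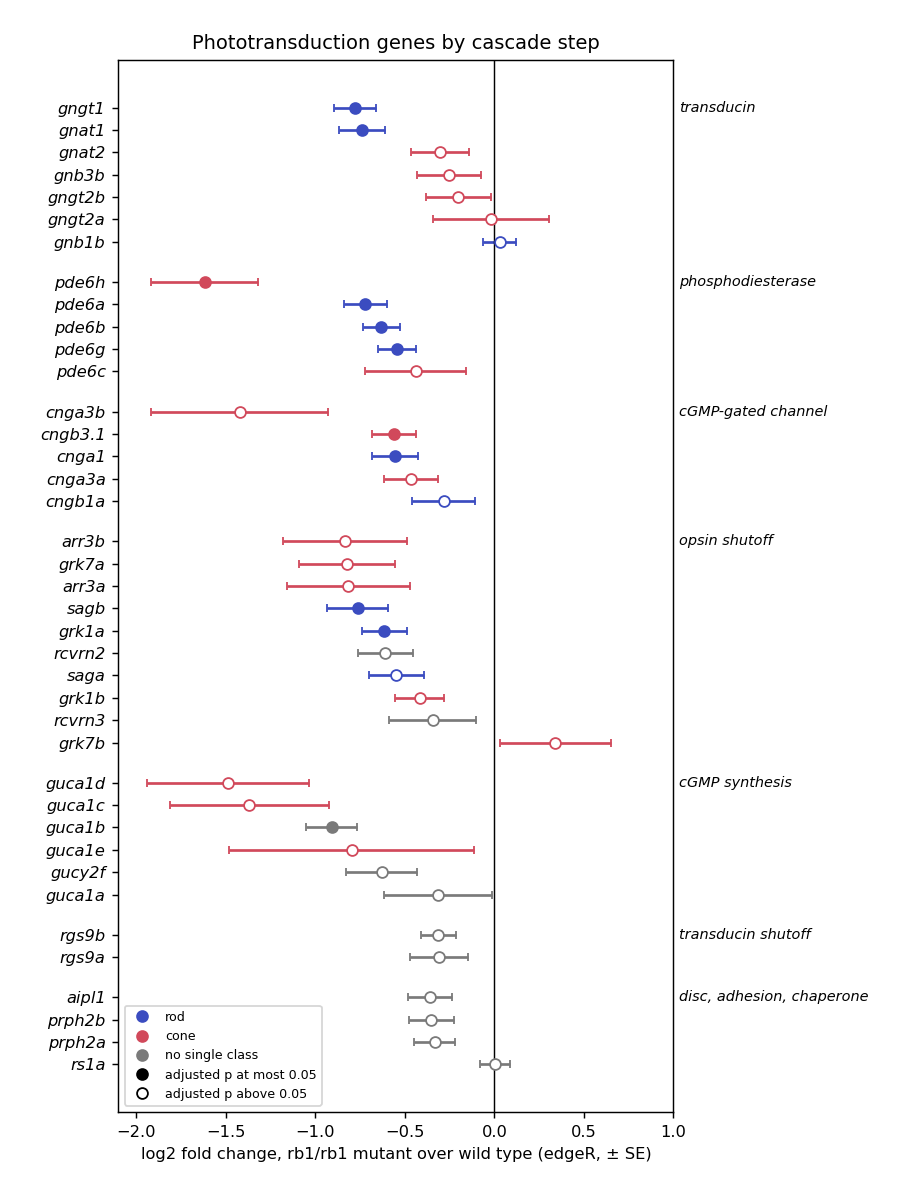
Log2 fold change of each phototransduction gene, *rb1/rb1* mutant over wild type, with its standard error from edgeR (3 pools per genotype), grouped by cascade step. Rod genes are blue, cone genes red and genes of no single class grey, and filled points have an adjusted p of at most 0.05. 36 of the 39 points lie left of 0, and the rod genes have the shorter error bars.

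Rod and cone genes differed in how far pools of 1 genotype lay apart. The mean of log2(CPM + 1) over the 11 rod genes was 5.86, 5.79 and 5.95 in the mutant pools, against 6.55, 6.32 and 6.35 in the wild-type pools, a difference of -0.54. Over the 17 cone genes it was 6.16, 6.003 and 6.48 in the mutant pools, against 7.10, 6.89 and 6.56 in the wild-type pools, a difference of -0.63. Both sets of means separated the genotypes, but among the cone genes mutant pool 3 lay only just under wild-type pool 3. Without *gnb1b*, a rod gene that many neurons outside the retina use too, the difference over the rod genes was -0.60. The median standard error of the log2 fold change was 0.13 over the rod genes and 0.30 over the cone genes. A mean difference of like size was therefore past the threshold in most rod genes and in few cone genes, and the smaller number of cone genes that passed does not show a smaller change in cones. Within a library, the rod mean minus the cone mean was -0.30, -0.22 and -0.53 in the mutant pools, against -0.54, -0.56 and -0.21 in the wild-type pools, so the groups overlapped and differed by 0.09.

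**Figure D2:**
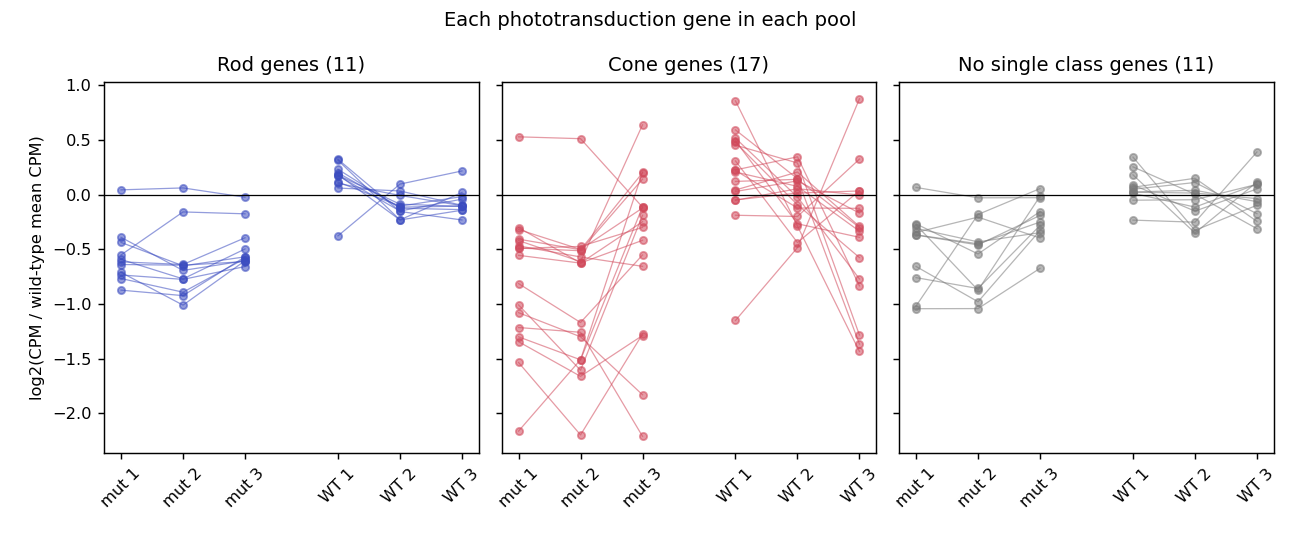
Each phototransduction gene in each pool as log2 of its CPM over its wild-type mean, with mutant pools left and wild-type pools right in each panel and a line joining the pools of 1 genotype for each gene (pools have no order). The rod genes other than *gnb1b* and *cngb1a* lie together in all 6 pools, and the cone genes spread widely, with several near the wild-type mean in mutant pool 3 and several far below it in wild-type pool 3.

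By cascade step, the difference of the mean of log2(CPM + 1) between mutant and wild-type pools was -0.80 for cGMP synthesis, -0.76 for phosphodiesterase, -0.56 for opsin shutoff, -0.56 for the channel, -0.34 for transducin, -0.30 for transducin shutoff and -0.25 for the disc, adhesion and chaperone genes. These means are a description and were not tested against each other. The mean for transducin includes *gnb1b*, which many neurons outside the retina use too, and was not computed without it. The mean for cGMP synthesis leaves out *gc3* and holds no gene classed as rod. Those for transducin shutoff and for the disc, adhesion and chaperone genes hold only genes of no single class.

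Transducin is the G protein that carries the signal away from opsin. The rod alpha subunit *gnat1* had 147, 135 and 167 CPM in the mutant pools, against 287, 231 and 233 CPM in the wild-type pools, and fell by 0.74 ± 0.13 on the log2 scale (SE, edgeR adjusted p = 0.0195). The rod gamma subunit *gngt1* had 69.3, 67.0 and 85.6 CPM in mutants, against 132, 129.9 and 118.6 CPM in wild types, and fell by 0.78 ± 0.12 (edgeR adjusted p = 0.0127). Neither gene overlapped between genotypes. The beta subunit *gnb1b*, which rods use and which many neurons outside the retina use too, had 391, 396 and 373 CPM in mutants, against 407, 377 and 354 CPM in wild types, with a log2 fold change of 0.03 ± 0.09 (adjusted p = 0.893 by edgeR). It was the rod gene furthest from the others, and its log2 fold change turned to -0.019 without wild-type pool 3.

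None of the cone transducin genes passed the test. *gnat2*, the cone alpha subunit, had 1212, 1068 and 1388 CPM in mutants, against 1744, 1592 and 1199 CPM in wild types, a log2 fold change of -0.30 ± 0.16 (edgeR adjusted p = 0.308). Mutant pool 3 was above wild-type pool 3. *gngt2b*, a cone gamma subunit, had 432, 404 and 658 CPM in mutants, against 554, 579 and 586 CPM in wild types (log2 fold change -0.20, edgeR adjusted p = 0.562). *gnb3b*, the cone beta subunit, had 932, 916 and 1442 CPM in mutants, against 1262, 1358 and 1304 CPM in wild types (log2 fold change -0.25, edgeR adjusted p = 0.451). In these last genes mutant pools 1 and 2 were below every wild-type pool and mutant pool 3 was above every one. Without mutant pool 3, the log2 fold change was -0.45 for *gngt2b* (edgeR adjusted p = 0.0249) and -0.50 for *gnb3b* (edgeR adjusted p = 0.0168). That pool was picked after its values were seen, so these p-values are no test of a decrease. When each library was left out in turn, the edgeR adjusted p reached 0.859 for *gngt2b* and 0.787 for *gnb3b*. The other cone gamma subunit, *gngt2a*, ranged from 30.4 to 72.3 CPM in mutants and from 40.4 to 58.2 CPM in wild types (log2 fold change -0.02, edgeR adjusted p = 0.98).

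Of the phosphodiesterase genes, 4 of 5 fell, the largest share of a step without the replicate block; with it, cGMP synthesis had 5 of 6 and phosphodiesterase again 4 of 5. The rod catalytic subunits moved almost alike. *pde6a* had 40.4, 39.3 and 42.6 CPM in mutants, against 78.9, 61.6 and 61.1 CPM in wild types (log2 fold change -0.72 ± 0.12, edgeR adjusted p = 0.017), and *pde6b* had 41.6, 41.4 and 42.3 CPM in mutants, against 73.0, 58.3 and 62.9 CPM in wild types (-0.63 ± 0.10, edgeR adjusted p = 0.016). The mutant pools agreed closely for both genes, with SDs of 1.69 CPM for *pde6a* and 0.504 CPM for *pde6b*, and no mutant pool reached a wild-type pool. The inhibitory subunit *pde6g*, used by rods in mammals, had 45.2, 44.4 and 52.6 CPM in mutants, against 74.9, 64.3 and 68.3 CPM in wild types (-0.54 ± 0.10, edgeR adjusted p = 0.0276), again without overlap.

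The widest fold change of the whole set belonged to *pde6h*, the inhibitory subunit that cones use. It had 152, 96.3 and 182 CPM in the mutant pools, against 620.3, 367 and 336 CPM in the wild-type pools. The highest mutant pool was below the lowest wild-type pool, and the estimate was 67.4% lower in mutants (log2 fold change -1.62 ± 0.30, edgeR adjusted p = 0.0245). The catalytic subunit of the same cone enzyme, *pde6c*, had 417, 333 and 384 CPM in mutants, against 734, 505 and 301 CPM in wild types (-0.44 ± 0.28, edgeR adjusted p = 0.407). Here the wild-type pools spread more than the genotypes differed, and wild-type pool 3 was below every mutant pool.

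**Figure D3:**
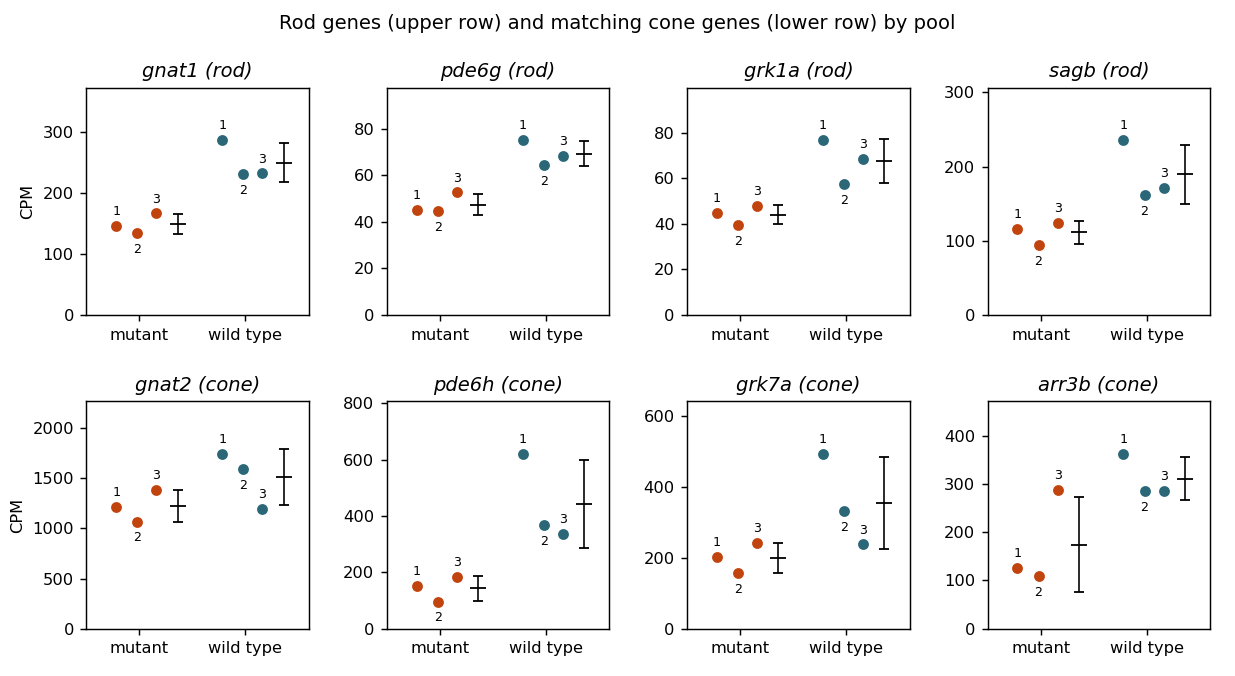
CPM of 4 rod genes (upper row) and 4 cone genes of the matching step (lower row) in each pool, mutant left of wild type, with pool numbers beside the points and the mean and SD of 3 pools as a bar. *gnat1*, *pde6g*, *grk1a*, *sagb* and *pde6h* separate the genotypes, whereas *gnat2*, *grk7a* and *arr3b* overlap, the last through mutant pool 3 at 288 CPM.

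The cGMP-gated channel is the cation channel that carries the dark current. *cnga1*, its rod alpha subunit, had 11.01, 8.93 and 9.49 CPM in mutants, against 16.3, 13.6 and 13.4 CPM in wild types, and its log2 fold change of -0.56 ± 0.13 was just inside the threshold (edgeR adjusted p = 0.0499). That call was lost with library totals (adjusted p = 0.0598), with no filter (0.0531), on lane a alone (0.114) and whichever library was left out (0.0793 to 0.15). *cngb3.1*, a cone beta subunit, had 8.14, 7.59 and 7.15 CPM in mutants, against 11.5, 12.3 and 10.02 CPM in wild types (-0.56 ± 0.12, edgeR adjusted p = 0.0404). Its call was lost with library totals (adjusted p = 0.0526), on lane a alone (0.0527), on lane b alone (0.0553) and whichever library was left out (0.0622 to 0.180). Neither overlapped between genotypes. Reads shared between *cngb3.1* and its copy *cngb3.2* could be split between them, which was not tested. *cnga3b*, a cone alpha subunit, had the most negative estimate of the step and the widest spread, with 6.16, 4.94 and 6.40 CPM in mutants, against 28.3, 12.8 and 5.79 CPM in wild types (-1.42 ± 0.49, edgeR adjusted p = 0.135). Its wild-type pool 3 lay within the mutant range. The rod beta subunit *cngb1a* had 19.9, 26.1 and 25.8 CPM in mutants, against 22.4, 31.1 and 33.8 CPM in wild types (-0.28, edgeR adjusted p = 0.388), and *cnga3a* ranged from 31.7 to 41.1 CPM in mutants and from 39.7 to 53.8 CPM in wild types (-0.47, edgeR adjusted p = 0.118).

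Opsin shutoff begins with phosphorylation by an opsin kinase and ends with capture by arrestin. Among the kinases, the rod gene *grk1a* had 44.8, 39.6 and 47.8 CPM in mutants, against 76.6, 57.5 and 68.4 CPM in wild types (log2 fold change -0.61 ± 0.13, edgeR adjusted p = 0.0344), with no overlap. *grk1b*, a cone kinase, had 101, 102 and 115 CPM in mutants, against 146, 163 and 115 CPM in wild types, where the highest mutant pool was below the lowest wild-type pool by less than 1 CPM (-0.42 ± 0.14, edgeR adjusted p = 0.122). The main cone kinase *grk7a* had 201, 157 and 241 CPM in mutants, against 492, 332 and 237 CPM in wild types (-0.82 ± 0.27, edgeR adjusted p = 0.117). Its mutant pool 3 and wild-type pool 3 were nearly level. *grk7b* was the member with the highest fold change of the set and did not pass, with 8.87, 8.77 and 5.68 CPM in mutants, against 7.19, 7.81 and 3.45 CPM in wild types (0.34 ± 0.31, edgeR adjusted p = 0.567).

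Of the arrestins, the rod gene *sagb* had 116, 94.0 and 125 CPM in mutants, against 235, 161 and 172 CPM in wild types, and fell by 0.76 ± 0.17 on the log2 scale (edgeR adjusted p = 0.0441). Its paralog *saga* had 56.3, 48.5 and 51.4 CPM in mutants, against 95.3, 68.5 and 64.9 CPM in wild types (-0.55 ± 0.15, edgeR adjusted p = 0.0826; adjusted p = 0.0372 with the replicate block). Both rod arrestins were lower in every mutant pool than in any wild-type pool. The cone arrestins had larger estimates and did not pass. *arr3b* had 126, 109 and 288 CPM in mutants, against 363, 286 and 285 CPM in wild types (-0.83 ± 0.35, edgeR adjusted p = 0.198), and *arr3a*, chosen after its values were seen, had 373, 247 and 658 CPM in mutants, against 929, 554 and 769 CPM in wild types (-0.82 ± 0.35, edgeR adjusted p = 0.207). In both genes mutant pool 3 alone reached the wild-type range. Without that pool, *arr3b* had a log2 fold change of -1.40 (edgeR adjusted p = 0.0058) and *arr3a* of -1.27 (edgeR adjusted p = 0.038). The pool was picked after its values were seen, so these p-values are no test of a decrease. When each library was left out in turn, the edgeR adjusted p reached 0.464 for *arr3b* and 0.448 for *arr3a*.

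The recoverins are calcium sensors that restrain opsin kinases in the dark. *rcvrn2*, also named after its values were seen, ranged from 289 to 431 CPM in mutants and from 511 to 532 CPM in wild types, without overlap (-0.61 ± 0.15, edgeR adjusted p = 0.0627). When each library was left out in turn, its edgeR adjusted p lay between 0.00542 (without mutant pool 3) and 0.227. *rcvrn3* ranged from 253 to 458 CPM in mutants and from 369 to 588 CPM in wild types (-0.34, edgeR adjusted p = 0.449).

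Genes of cGMP synthesis, counted without *gc3*, gave the most negative step mean and the largest median standard error of a step, 0.37. *guca1b*, a guanylate cyclase activating protein, had 5.22, 5.22 and 6.74 CPM in mutants, against 10.8, 9.94 and 11.5 CPM in wild types, without overlap, and fell by 0.91 ± 0.14 (edgeR adjusted p = 0.0139). *guca1d*, a cone activating protein, had 3.55, 3.44 and 1.78 CPM in mutants, against 11.3, 10.1 and 3.38 CPM in wild types (-1.49 ± 0.45, edgeR adjusted p = 0.0992). *guca1a* was the lowest gene of the set, with 1.47, 2.62 and 3.09 CPM in mutants, against 2.53, 2.50 and 3.90 CPM in wild types (-0.31 ± 0.30, edgeR adjusted p = 0.587). The groups overlapped for both of these genes. The gene listed as *gc3*, which the reference table names *gucy2d* and which was not counted in the set, ranged from 77.2 to 135 CPM in mutants and from 115 to 164 CPM in wild types (-0.39 ± 0.22, edgeR adjusted p = 0.326). The order of the steps was not computed with it, and the step means of cGMP synthesis and phosphodiesterase lay close.

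Much of that spread followed the pool number. *guca1c* had 45.8, 39.3 and 27.2 CPM in mutant pools 1, 2 and 3, against 146, 107 and 37.5 CPM in wild-type pools 1, 2 and 3, so pool 3 was lowest in both genotypes, as in *guca1d*. *guca1e* had 5.73, 9.01 and 29.6 CPM in the mutant pools, against 11.5, 18.3 and 47.0 CPM in the wild-type pools, so pool 3 was highest in both genotypes. *gucy2f*, a retinal guanylate cyclase, had 10.7, 8.53 and 13.4 CPM in the mutant pools, against 19.0, 13.2 and 18.2 CPM in the wild-type pools. In each of these 4 genes the mutant pool was below the wild-type pool of its own number in all 3 pairs. The 4 were chosen after their values were seen, and the block changed the call of each, so this agreement is no test. In *guca1a*, of the same step, mutant pool 2 was above wild-type pool 2 (2.62 against 2.50 CPM). The share of all genes lower in all 3 pairs was not computed. With the pool number as a block, edgeR gave a log2 fold change of -1.20 for *guca1c* (adjusted p = 0.0352, against 0.114 without the block), -1.41 for *guca1d* (adjusted p = 0.0123, against 0.0992), -0.89 for *guca1e* (adjusted p = 0.0123, against 0.539) and -0.63 for *gucy2f* (adjusted p = 0.0269, against 0.109). Under the block 16 of the 39 genes fell (9 rod genes, 5 cone genes and 2 of no single class; background 4.03%), and these included each of the 11 that fell without it. *aanat2*, a melatonin synthesis enzyme of the pineal and retina, showed the same ordering as *guca1e*, with 2.81, 5.40 and 22.5 CPM in mutants, against 7.74, 13.2 and 39.0 CPM in wild types. Its log2 fold change was -0.97 (edgeR adjusted p = 0.534), and with the block -1.15 (adjusted p = 0.0134). What the pools of 1 number shared was not given in the labels, and its part in these values was not tested.

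**Figure D4:**
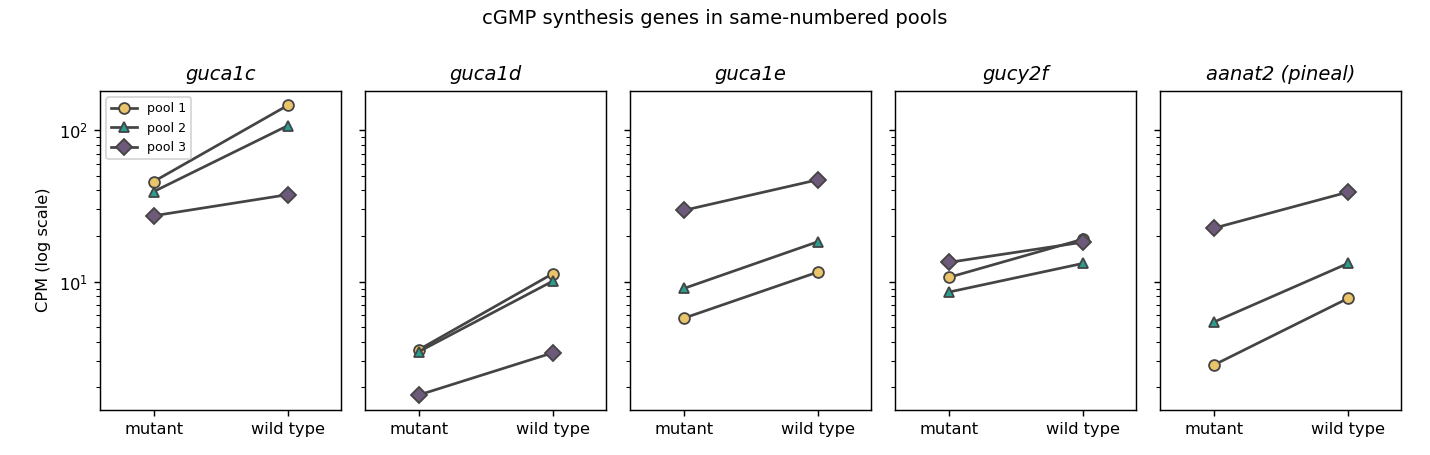
CPM on a log scale of 4 cGMP synthesis genes and of *aanat2* in mutant (left) and wild-type (right) pools, with a line joining pools of the same number. Every line climbs towards wild type, and pool 3 is lowest for *guca1c* and *guca1d* but highest for *guca1e* and *aanat2* in both genotypes. The 4 cGMP synthesis genes were chosen after their values were seen.

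Transducin shutoff and the structural genes had the step means nearest to 0. *rgs9b*, a GTPase accelerating protein for transducin, had 19.9, 21.96 and 19.2 CPM in mutants, against 24.4, 24.5 and 27.0 CPM in wild types (log2 fold change -0.31 ± 0.10, edgeR adjusted p = 0.104). The groups did not overlap, but the test was not passed. *rgs9a* had 52.1, 43.1 and 56.4 CPM in mutants, against 74.8, 62.9 and 50.6 CPM in wild types (-0.31 ± 0.16, edgeR adjusted p = 0.295). *aipl1*, a chaperone that phosphodiesterase needs for its assembly, had 5.93, 5.44 and 5.77 CPM in mutants, against 7.81, 6.62 and 7.61 CPM in wild types (-0.36 ± 0.12, edgeR adjusted p = 0.125), also without overlap. The disc rim genes *prph2a* and *prph2b* had log2 fold changes of -0.33 and -0.35 (edgeR adjusted p = 0.137 and 0.142). *rs1a*, the secreted adhesion protein retinoschisin, had 105, 98.3 and 98.4 CPM in mutants, against 102, 103 and 95.9 CPM in wild types. Its log2 fold change of 0.01 ± 0.08 (adjusted p = 0.981 by edgeR) took either sign depending on the scaling, and its standard error was small.

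Rod and cone genes of the same step were then compared within each library, where scaling cancels. 14 pairs were formed, and the log2 ratio of the rod gene to the cone gene was lower in mutants for 7 pairs and higher for 7. In 3 pairs the genotypes did not overlap. A pair with no genotype difference would separate in either direction with a probability of 0.1. Some pairs share a gene, so the pairs are not independent. For *gnat1/gnat2* the log2 ratio was -3.04, -2.99 and -3.06 in the mutant pools, against -2.60, -2.78 and -2.37 in the wild-type pools, a difference of -0.44. For *gngt1/gngt2b* it was -2.64, -2.59 and -2.94 in the mutant pools, against -2.07, -2.16 and -2.31 in the wild-type pools, a difference of -0.55. The inhibitory subunits went the other way: *pde6g/pde6h* was -1.75, -1.12 and -1.79 in the mutant pools, against -3.05, -2.51 and -2.30 in the wild-type pools, a difference of 1.07. Each had p = 0.1 in a two-sided exact permutation test, the smallest that 3 pools against 3 allow, and p = 0.467 after Benjamini-Hochberg adjustment over the 14 pairs, so no pair could pass. Taking pools of the same number together, 4 pairs were lower in all 3 mutant pools (*gnat1/gnat2*, *gngt1/gngt2a*, *gngt1/gngt2b* and *pde6a/pde6c*) and 2 were higher in all 3 (*pde6g/pde6h* and *cngb1a/cngb3.1*), where an exact sign-flip test cannot go below p = 0.25. A pair with no difference would go a single way in all 3 with that same probability. *gngt1* is the rod gene of both *gngt1/gngt2a* and *gngt1/gngt2b*.

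**Figure D5:**
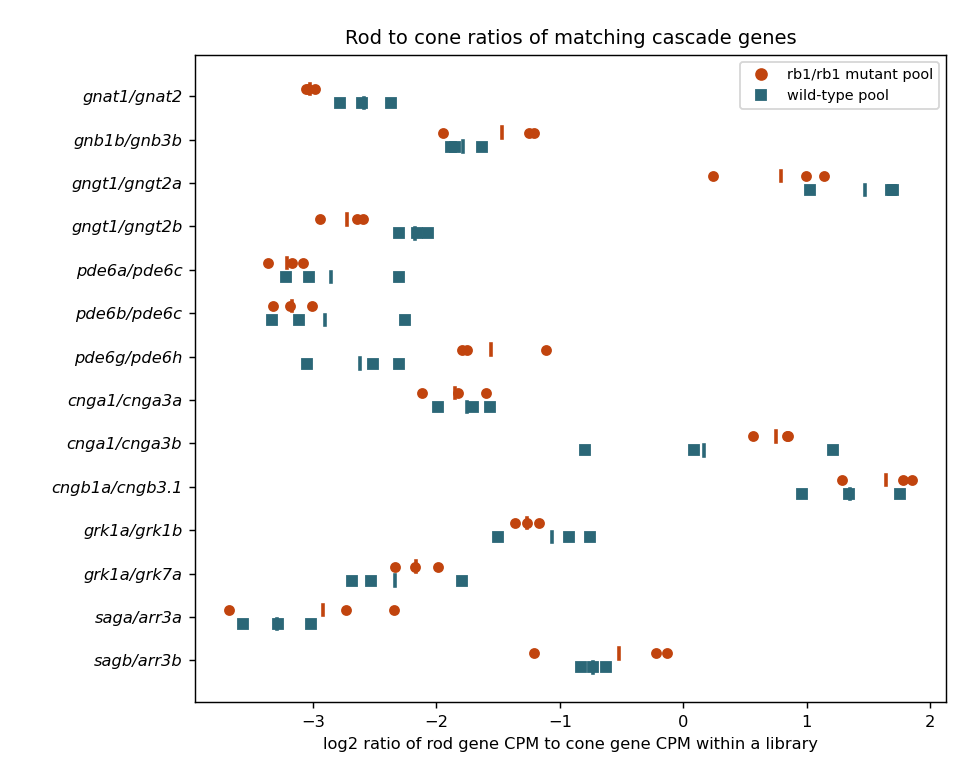
Log2 ratio of rod gene CPM to cone gene CPM within each library for 14 pairs of matching cascade genes, with mutant pools above wild-type pools in each row and a short bar at each mean. Mutant points lie left of all wild-type points for *gnat1/gnat2* and *gngt1/gngt2b* and right of all of them for *pde6g/pde6h*, and the other 11 pairs overlap.

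Levels of different genes were compared per length, in FPKM. Cone genes led the set in both genotypes. *gngt2b* was highest (974 ± 235 FPKM in mutants and 1081 ± 37.3 FPKM in wild types, SD, n = 3 each), followed by *gnat2* (482 ± 45.6 FPKM in mutants and 572 ± 103 FPKM in wild types). *pde6h* ranked 5 in mutants (179 ± 48.8 FPKM) and 3 in wild types (529 ± 185 FPKM), and in wild types it lay within an SD of *gnat2* and of *gnb3b* (485 ± 17.9 FPKM). The highest rod genes in wild types were *gngt1* (81.8 ± 8.22 FPKM in mutants and 134.9 ± 6.93 FPKM in wild types) and *gnat1* (77.6 ± 5.52 FPKM in mutants and 124.6 ± 15.4 FPKM in wild types). In both genotypes *gngt1* lay within the SD of *gnat1* from its mean. The next rod gene in wild types, *sagb*, was close to *gnat1* (120 ± 25.1 FPKM). In mutants *gnb1b*, at 99.5 ± 6.60 FPKM, stood above *gngt1* and *gnat1*, against 93.5 ± 6.13 FPKM in wild types. The cone to rod ratio of transducin alpha, *gnat2* over *gnat1* in FPKM, ranged from 6.02 to 6.32 in mutants and from 3.92 to 5.24 in wild types. The 39 genes together took 0.664, 0.601 and 0.806% of all gene counts in the mutant pools, against 1.04, 0.884 and 0.818% in the wild-type pools. Mutant pool 3 was close to wild-type pool 3 in this share.

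*rho*, whose product drives the rod cascade, had a log2 fold change of -0.69 ± 0.11 (edgeR adjusted p = 0.0161), within the range of the rod genes. Among the cone opsins tested, *opn1mw2*, a green opsin, had 3.75, 4.02 and 5.77 CPM in mutants, against 12.3, 15.1 and 13.3 CPM in wild types, and fell by 1.58 ± 0.18 (edgeR adjusted p = 0.00505). *opn1mw2* is 1 of several near-identical tandem copies, so its counts are uncertain. *opn1sw1*, *opn1sw2*, *opn1mw1*, *opn1lw1* and *opn1lw2* had log2 fold changes between -0.39 and -0.11 and did not pass by edgeR with all pools. In *opn1lw2* all mutant pools were below all wild-type pools (1926.5 to 2567 against 2646 to 3047 CPM). DESeq2 called *opn1lw2* lower (adjusted p = 0.0465) and none of the others named with it. Without mutant pool 3, edgeR called *opn1sw1*, *opn1sw2* and *opn1lw2* lower (adjusted p = 0.0275, 0.0493 and 0.0193). That pool was picked after its values were seen, so these p-values are no test of a decrease. Of 22 further cascade genes tested, 3 fell (*rom1a* and *rom1b*, disc rim proteins, and *unc119.2*, of a family that binds transducin) and 0 rose, against the 2.17% lower and 3.82% higher over all genes. With the replicate block 5 fell (background 4.03%), with *rgs9bp* (adjusted p = 0.0479) and *pdca* (adjusted p = 0.0339) added. DESeq2 called 7 lower (background 5.16%) and 1 higher (*gnb3a*, which is also in the list of bipolar cell genes below). Among 8 photoreceptor regulators, 1 fell and 0 rose by edgeR, while 3 were lower (background 10.5%) and 1 was higher at an unadjusted p under 0.05. *crx*, *nrl* and *nr2e3*, the factors that define photoreceptor and rod identity, had log2 fold changes of 0.14, 0.08 and -0.07 (edgeR adjusted p = 0.451, 0.768 and 0.924). *rx1*, a retinal homeobox gene, fell by 0.35 (edgeR adjusted p = 0.0491), a call that was lost with the replicate block (adjusted p = 0.0593). It was also lost by edgeR without mutant pool 3 (adjusted p = 0.0516) and without wild-type pool 1 (adjusted p = 0.102). DESeq2 called *rx1* lower (adjusted p = 0.00222), and all its mutant pools were below all its wild-type pools (103 to 110 against 134 to 139 CPM). In *otx5* and *thrb*, chosen after their values were seen, all mutant pools were also below all wild-type pools (log2 fold change -0.33 for each, edgeR adjusted p = 0.122 and 0.164), and in *tbx2b* all were above (0.19, edgeR adjusted p = 0.195).

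Genes of other tissues of the head were read beside these results. None of 9 lens genes, 6 Müller glia genes, 8 brain neuron genes, 11 bipolar cell genes and 6 pineal genes passed in either direction by edgeR without the replicate block, and at an unadjusted p under 0.05 the counts lower and higher were 3 and 1 for lens, 1 and 0 for Müller glia, 2 and 0 for brain neurons, 0 and 3 for bipolar cells and 1 and 2 for pineal. With the block (background 4.03% lower), 1 lens gene (*cryba1a*, adjusted p = 0.0333) and 1 pineal gene (*aanat2*) were lower. DESeq2 (background 5.16% lower) called 2 lens genes, 1 Müller glia gene, 1 brain neuron gene and 1 pineal gene lower and 2 bipolar cell genes higher (*vsx1* and *gnb3a*). *gnb3a* is in the list of further cascade genes too, so its rise was counted in both lists. It is also 1 of the 3 bipolar cell genes higher at an unadjusted p under 0.05. The share of all genes higher was not computed for DESeq2 or for the unadjusted p. *vsx1*, a bipolar cell factor, had a log2 fold change of 0.48 (edgeR adjusted p = 0.0544). Of 8 genes listed for the retinal pigment epithelium, the layer that serves the outer segments, 2 fell (*rdh5* by 1.02, edgeR adjusted p = 0.00548, and *stra6* by 0.56, edgeR adjusted p = 0.0388). The summed level of the 8 was 171 to 202 CPM in mutants and 228 to 242 CPM in wild types. That sum holds the pigment genes *pmela*, *tyrp1b* and *dct* (means of 77.6, 57.4 and 30.6 CPM in wild types), so it does not measure this layer alone. These 3 did not pass (edgeR adjusted p = 0.302, 0.434 and 0.203). The defining gene *rpe65a* had a log2 fold change of -0.56 (edgeR adjusted p = 0.0806). With the block *rpe65a* passed (adjusted p = 0.0479), which made 3 of 8. Of 12 cell cycle genes, 8 rose (background 3.82%), and 12 with the block, for which the share of all genes higher was not computed. The summed level of the 12 was 1673 to 1874 CPM in mutants and 637 to 1057 CPM in wild types. Their part in the lower level of the phototransduction genes was not tested.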

How the data were processed

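Heads of 5 dpf larvae were pooled by 5 and sequenced in 2 lanes per library. Alignment to GRCz10 by the authors used GSNAP and gene counting used HTSeq, which gave the deposited raw counts of each gene in each lane; the strand setting is not given in the sources used here, so overlapping or near-identical genes are uncertain. FPKM values were computed by the authors from these counts and gene lengths, and were used only to compare levels between genes. A deposited table of the authors' DESeq2 comparison (mean normalized counts, log2 fold changes, standard errors, Wald statistics and p-values) was not used.

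Lanes were summed, since they differed by no more than sampling noise (chi-square per degree of freedom 0.993 to 1.012). The quasi-likelihood test of edgeR 4.0.16 (R 4.3.3) was run on all genes (TMM, filterByExpr, genotype only, Benjamini-Hochberg over 22753 genes). The standard error is the size of the log2 fold change over the square root of F. The main threshold for single genes was an adjusted p of 0.05, beside that of the study (0.01 and 1.5-fold, which the study applied with DESeq2). Ratios of paired genes were tested by exact permutation in scipy 1.17.1, and means of log2 levels used a pseudocount of 1 CPM. The scripts were tested on simulated data. Deviations from the genotype means of same-numbered pools correlated across genes at 0.410, 0.431 and 0.281, each above 0.1, so the fit with pool number as a block is printed where it changes a call. Alternatives were RLE scaling, library totals, no filter, DESeq2 1.42.0, that block, each lane alone and leaving out each library.

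The genes, their classes, the pairs and the lists were chosen with earlier results of these data known. Every member is named. Values per pool are given for members past the threshold, for genes of a pair that do not overlap or whose ratio does not overlap, and for the extremes of each step. They are also given for *gnb3b*, *grk7a*, *arr3a*, *guca1c*, *guca1e* and *gucy2f*, which meet none of these rules and were chosen with their values known. Identifiers of all 39 genes were in the reference table, 19 under the same symbol. Of the others, the reference named *gngt1* as GNG11, both *pde6a* and *pde6b* as PDE6B, and *guca1e* as GUCA1A. Classes and pairs follow the symbols of the count table. Promoter and protein sequences were not analysed here.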

Additional observations from a re-analysis of the deposited data

How the results depend on the processing

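At the threshold of the study, the number of phototransduction genes called was 0 by edgeR, but 10 with DESeq2, the test of the study. By edgeR it was 1 with library totals and between 0 and 4 when 1 library was left out (4 without mutant pool 3). The 11 genes lower at an adjusted p of 0.05 became 17 with DESeq2 and between 0 and 14 when 1 library was left out. The 8 rod genes among them became between 0 and 7 when 1 library was left out. The 2 cone genes among them became 1 with library totals, 1 on lane a alone, 1 on lane b alone, 5 with DESeq2, 5 with the replicate block by pool number, and between 0 and 5 when 1 library was left out. The 3 pairs of rod and cone genes whose genotypes did not overlap became between 4 and 6 when 1 library was left out, and with pools of the same number taken as a block 6 pairs went a single way in all 3. With fewer pools, a pair with no genotype difference separates more readily, so the larger numbers are no firmer result. Why these counts moved was not tested, beyond the smaller number of libraries in the fits that leave 1 out.

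Signs changed in 3 genes, whose main estimates were near 0. Of these, *gngt2a* moved widely, so its direction is not settled. It had a log2 fold change of 0.022 with library totals and between -0.51 and 0.20 when 1 library was left out (0.14 without mutant pool 1, 0.20 without mutant pool 2 and 0.17 without wild-type pool 3). *gnb1b* lay between -0.019 and 0.081 when 1 library was left out. *rs1a* had -0.0016 with RLE, -0.0026 with DESeq2, -0.0012 on lane b alone and between -0.027 and 0.026 when 1 library was left out. The differences in log2 ratio of *cnga1/cnga3a* (between -0.22 and 0.041, without mutant pool 3), *grk1a/grk7a* (between -0.0038, without wild-type pool 1, and 0.44) and *pde6b/pde6c* (between -0.49 and 0.051, without wild-type pool 3) also changed sign. Among the 39 genes, the replicate block changed no call other than those of *saga*, *guca1c*, *guca1d*, *guca1e* and *gucy2f*. With 3 pools per genotype, a member that did not pass is not shown to be unaltered.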
